A study of Mus musculus with 10 samples.

Results

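The genes described here are the classical axon guidance ligands and receptors of mouse retinal ganglion cells (RGCs), the neurons whose axons form the optic nerve: semaphorins with plexins and neuropilins, ephrins with Eph receptors, Slits with Robo receptors, and netrins with Dcc and Unc5 receptors. They were chosen by symbol (Sema3 to Sema7, Plxna to Plxnd, Nrp1, Nrp2, Efna, Efnb, Epha, Ephb, Robo, Slit, Unc5a to Unc5d, Ntn and Dcc). Of 34254 genes in the count matrices 72 symbols matched, and the 63 with at least 50 UMIs over all 10 matrices were kept. A UMI (unique molecular identifier) marks 1 captured RNA molecule. The other 9 were Epha1, Epha2, Robo3, Robo4, Ntn5, Plxna4os1, Plxna4os2, Plxnb3 and Sema3g.

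RGCs were profiled by droplet scRNA-seq without injury (6 libraries, uninjured 1 to 6) or 2 weeks after optic nerve crush, ONC (4 libraries, injured 1 to 4). All mice were wild-type 129S1/SvImJ at 12 weeks of age (P84) and are described as of both sexes, and 10 retinas were pooled per batch. RGCs were enriched by Thy1 immunopanning, and 6000 cells were loaded per batch. Injury is by a crush that severs the axons, so injured RGCs are those that survived and could still be isolated.

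As background, guidance ligands steer a growth cone by binding receptors on it. Secreted class 3 semaphorins bind neuropilins, which signal through plexins, while membrane-bound semaphorins bind plexins directly. Ephrins sit on membranes and bind Eph receptor tyrosine kinases on neighbouring cells, and in the developing visual system graded EphA and ephrin-A levels order RGC axons in their targets. Netrin 1 attracts RGC axons to the optic disc through Dcc, Unc5 receptors mediate repulsion from netrin, and Slits repel RGC axons through Robo2.

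All 8 RGC markers were detected in every library and summed to 6763 to 8242 CPM (UMIs scaled to a common library total) without injury. With injury they summed to 4536 to 5866 CPM. Slc17a6, the vesicular glutamate transporter of RGCs, was at 344 to 494 CPM in uninjured and 419 to 545 CPM in injured libraries. Rbpms, a pan-RGC RNA-binding protein, was at 596 to 801 CPM and 269 to 332 CPM. Tubb3 was higher in all injured libraries, at 393 to 747 and 920 to 1806 CPM. Lower in all of them were Rbpms, Sncg, Thy1, Nefm, Pou4f1 (231 to 356 and 79.6 to 108 CPM) and Nefl (1888 to 2185 and 1093 to 1225 CPM). Summed markers of cones, bipolar cells, microglia, endothelium and pericytes, and astrocytes and oligodendrocytes stayed at or below 22.1 CPM for each class in each library. The 6 amacrine markers summed to 49.4 to 187 CPM in uninjured and 51.5 to 143 CPM in injured libraries, with Slc6a9 alone higher in all injured libraries (1.46 to 13.3 and 17.9 to 23.2 CPM), and the 6 Müller glia markers to 112 to 192 and 94.5 to 120 CPM. Among these Glul was at 37.4 to 49.7 CPM without and 73.7 to 88.96 CPM with injury and Rlbp1 at 0 to 5.60 and 7.97 to 10.6 CPM, both higher in all injured libraries, whereas Dkk3 was at 68.7 to 117 and 10.52 to 18.7 CPM. The 3 horizontal cell markers summed to 60.6 to 148 and 12.6 to 24.2 CPM, with Calb1 the larger part in 9 of 10 libraries and Lhx1 at 0 in all 10. The part of these markers in the results was not tested. With cells that carry at least 3 markers of another class left out, 10 guidance genes were higher and 25 lower of 56 tested. These are 17.9% and 44.6%, beside 21.9% and 23.1% of all genes. With all cells 10 were higher and 23 lower of 57 (17.5% and 40.4%, beside 21.3% and 22.7% of all genes). Libraries held 2839693 to 23180399 UMIs without injury and 4698799 to 8860536 with it, and the median cell 20437 to 34337 and 11257 to 14695. Injured 3 and 4 shared 421 cell barcodes and differed by less than the sampling noise, so their average (injured 3/4) stands for 1 sample beside injured 1 and 2, with 6 samples on the uninjured side. The other libraries were also alike in pairs, by the ratio of their difference to sampling noise. It was 1.75 for uninjured 1 and 2, 1.81 for uninjured 3 and 4, 1.44 for uninjured 5 and 6 and 2.11 for injured 1 and 2. Each of these libraries was closest to its partner. Uninjured 5 and 6 stood apart from uninjured 1 to 4, and a median of 1.72% and 1.83% of their UMIs per cell came from the nuclear RNA Malat1, against 3.13 to 4.82% in uninjured 1 to 4 and 6.37 to 7.78% in injured libraries. Injured 1 and 2 had Xist, the RNA of the inactive X chromosome, in 62.1% and 67.4% of their cells, against 0.569% or less elsewhere. These shares go against both sexes in 8 of 10 libraries, all 6 uninjured ones among them, and the part of sex in the results was not tested. The reporter mCherry was seen in 7.99%, 15.0%, 86.0% and 84.3% of cells in injured 1 to 4 but not without injury. Neither the labels nor the methods say that the libraries of a condition came from separate animals, so p-values measure the spread between these samples. A lower level may be fewer cells of an RGC type or less RNA per cell, which summed counts cannot tell apart.

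Of the 63 genes, 57 passed edgeR's filter on low counts and were tested with all other genes (6 uninjured against 3 injured samples). After injury 10 were higher and 23 were lower at an adjusted p under 0.05, and 24 did not pass. These are 17.5% and 40.4% of the 57. Among all 14234 genes tested, 44.0% passed, 21.3% as higher and 22.7% as lower. The median log2 fold change was -0.45 over the 57 genes and -0.03 over all genes tested. By role, among 31 tested ligands 9 were higher and 11 lower, and among 26 tested receptors 1 was higher and 12 were lower. This split between the roles was not tested. The samples of the conditions did not overlap for 11 genes that were higher and 22 that were lower after injury, 57.9% of the 57, against 42.9% of all genes tested in either direction. Without uninjured 5 and 6 the counts were 12 higher and 26 lower of 56 tested (21.4% and 46.4%, beside 26.8% and 27.35% of all genes). Against uninjured 5 and 6 alone they were 19 and 23 of 58 (32.8% and 39.7%, beside 31.1% and 30.1% of all genes), where 3 of the 19 had not passed the filter with all samples. Both settings were chosen after seeing the data. Among cells with a Malat1 share of 3 to 5%, where 44 of the genes could be tested and uninjured 5 and 6 rest on 7 and 8 cells (35 to 278 in the other uninjured and 49 to 82 in the injured libraries), 6 were higher and 18 lower (13.6% and 40.9%, beside 17.3% and 15.6% of all genes), and smaller log2 fold changes past the threshold were found there for Sema3c (4.98), Efna3 (-2.12), Sema4g (-1.69), Unc5a (-1.38) and Sema3a (-1.07, adjusted p = 0.0348). The genes that were not tested, Ephb4, Efna4, Ntn1, Unc5b, Plxnb1 and the antisense RNA Plxna4os3, each had at most 122 UMIs in all.

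**Figure D1:**
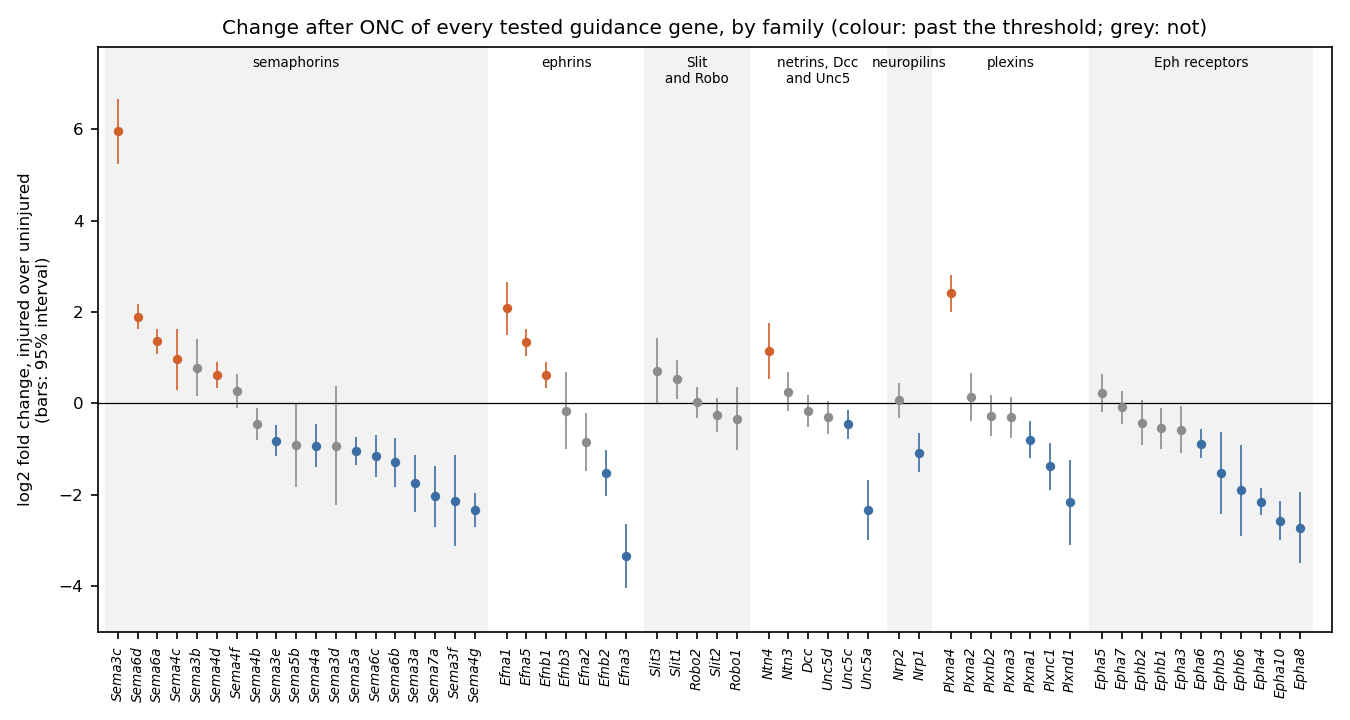
Log2 fold change (injured over uninjured) with its 95% interval for each of the 57 tested guidance genes, grouped by family. Orange points are higher and blue points lower past the threshold, and grey points did not pass it. Sema3c stands highest at 5.95, and no Eph receptor is orange.

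Among secreted class 3 semaphorins, which bind neuropilins, 1 gene rose and 3 fell. Sema3c was at 0.337 to 3.21 CPM (median 0.708) in uninjured samples and at 111, 93.4 and 108 CPM in injured 1, 2 and 3/4. It was barely detected before injury, with 1 to 78 UMIs in an uninjured library, and high in all 3 injured samples (log2 fold change 5.95, SE 0.36, adjusted p = 2.18e-07), and without uninjured 4 the log2 fold change was 6.75 (7.16 against uninjured 5 and 6 alone). Injured 1 and 2, with few mCherry cells, lay on either side of injured 3/4, and the part of mCherry in the results was not tested. Sema3a, the prototype repellent of this class, was at 28.97 to 83.8 CPM (median 75.8) in uninjured samples and at 19.3, 17.1 and 22.3 CPM in injured samples. All injured samples lay below all uninjured samples (log2 fold change -1.74, SE 0.32, adjusted p = 9.15e-04). Sema3e, which binds Plxnd1 without a neuropilin, was at 78.5 to 126 CPM (median 119.5) before and 68.3, 70.96 and 52.5 CPM after injury. Its groups did not overlap either (log2 fold change -0.81, SE 0.17, adjusted p = 0.00227). Sema3f, the preferred ligand of Nrp2, was low throughout, at 1.01 to 3.76 CPM (median 2.48) and 0.35, 0.449 and 0.806 CPM, and fell (log2 fold change -2.13, SE 0.51, adjusted p = 0.00502). Sema3b and Sema3d did not pass, with log2 fold changes of 0.78 (95% interval 0.16 to 1.40) and -0.93 (-2.23 to 0.38). With Sema3c higher and others lower, the 6 class 3 genes summed to 113 to 216 CPM in uninjured and 203, 191 and 189 CPM in injured samples, which overlap. Sema3d, Sema3a, Sema3e and Sema3c lie in this order on chromosome 5, with starts at 12433124, 13175288, 14075290 and 17779219 (GRCm39), so the gene that rose lies on one chromosome with 2 that fell.

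The start regions of the genes with the largest rises and falls are given to show what sequence precedes them. The 250 bases before the start of the canonical transcript (GENCODE, GRCm39, printed 5′ to 3′ on the gene's strand) of Sema3c (forward strand, chr5:17778969-17779218) and the plexin gene Plxna4 (reverse strand, chr6:32565194-32565443) are those of the largest rises, and those of the Eph receptor gene Epha8 (reverse strand, chr4:136684203-136684452) and the semaphorin gene Sema4g (forward strand, chr19:44977290-44977539) are of falling genes. Windows that an annotated exon reaches into were passed over, as for Efna3 and Epha10.
Sema3c: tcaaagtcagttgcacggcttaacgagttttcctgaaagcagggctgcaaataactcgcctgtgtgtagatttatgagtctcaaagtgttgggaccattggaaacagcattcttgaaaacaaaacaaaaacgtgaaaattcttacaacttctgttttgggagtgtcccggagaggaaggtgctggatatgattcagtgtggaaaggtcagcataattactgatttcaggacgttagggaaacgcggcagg
Plxna4: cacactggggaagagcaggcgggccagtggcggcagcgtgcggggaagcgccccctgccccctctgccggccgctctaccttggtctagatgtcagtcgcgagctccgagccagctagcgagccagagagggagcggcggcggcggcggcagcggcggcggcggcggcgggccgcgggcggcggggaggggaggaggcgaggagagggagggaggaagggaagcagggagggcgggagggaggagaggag
Epha8: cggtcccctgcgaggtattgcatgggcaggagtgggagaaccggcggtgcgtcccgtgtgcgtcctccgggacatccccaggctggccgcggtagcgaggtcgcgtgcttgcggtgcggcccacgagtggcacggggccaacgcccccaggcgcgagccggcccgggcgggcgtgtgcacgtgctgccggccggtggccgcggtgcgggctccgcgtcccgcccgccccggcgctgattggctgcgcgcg
Sema4g: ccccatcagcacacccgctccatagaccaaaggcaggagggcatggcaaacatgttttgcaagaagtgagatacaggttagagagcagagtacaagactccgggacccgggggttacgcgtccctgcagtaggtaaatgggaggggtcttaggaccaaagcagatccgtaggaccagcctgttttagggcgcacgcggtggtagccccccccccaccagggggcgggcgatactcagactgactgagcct
GC content was 43.6% for Sema3c, 76.0% for Plxna4, 77.6% for Epha8 and 59.2% for Sema4g, against a median of 57.2% over the same window of 12332 protein-coding genes tested and 62.4% over 62 guidance genes. The motifs searched on both strands were TGACTCA (AP-1), TGACGTCA (CRE) and TTGCATCA (an ATF4-type site), and none was found in these 4 windows, so all bases are in lower case. AP-1 was found in 2.95%, CRE in 2.17% and the ATF4-type site in 0.446% of windows of tested genes. Among the 62 guidance windows AP-1 was found in those of Sema4c and Unc5d, and CRE in that of Sema4c alone, and the ATF4-type site in none.

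Of 13 membrane-bound semaphorins, all tested, 4 rose and 6 fell. Over all 19 semaphorins 26.3% were higher and 47.4% lower, beside 21.3% and 22.7% of all genes tested. Sema6d, a transmembrane ligand of plexin-A1, was at 40.3 to 53.6 CPM (median 45.7) in uninjured samples and 182, 198 and 137 CPM in injured samples. Each injured sample was at least 2.56-fold above the highest uninjured sample (log2 fold change 1.90, SE 0.14, adjusted p = 1.09e-06). Sema6a, which binds plexin-A2 and plexin-A4, was at 171 to 218 CPM (median 197) and 542, 526 and 438 CPM. It also separated the conditions (log2 fold change 1.36, SE 0.14, adjusted p = 1.01e-05), and class 6 as a whole summed to 252 to 298 CPM before and 738, 735 and 589 CPM after injury. The other class 6 members fell, Sema6b with a log2 fold change of -1.28 (adjusted p = 0.00261) and Sema6c with -1.15 (adjusted p = 0.00202), from lower levels. Sema4g was at 13.2 to 19.3 CPM (median 16.96) in uninjured and 3.68, 2.69 and 3.49 CPM in injured samples. This transmembrane class 4 member fell without overlap (log2 fold change -2.33, SE 0.19, adjusted p = 2.26e-06). Sema7a, anchored to the membrane by a lipid tail and a ligand of plexin-C1, was at 5.89 to 12.9 CPM (median 10.4) and 1.93, 1.57 and 3.49 CPM. It fell as well (log2 fold change -2.03, SE 0.34, adjusted p = 4.80e-04).

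The remaining membrane-bound semaphorins belong to classes 4 and 5. Sema5a, with thrombospondin repeats outside the cell, was at 71.6 to 103 CPM (median 78.9) before and 46.05, 40.9 and 36.5 CPM after injury, and fell (log2 fold change -1.03, SE 0.16, adjusted p = 2.35e-04). Sema4a also fell, with a log2 fold change of -0.92 (adjusted p = 0.00896), but the change was -0.11 and did not pass where cells were limited to a Malat1 share of 3 to 5%, nor did it with similar libraries summed (adjusted p = 0.0630). Sema4d, the ligand of plexin-B1, was at 15.6 to 23.3 CPM (median 19.3) before and 31.9, 26.05 and 30.6 CPM after injury, and rose (log2 fold change 0.62, SE 0.15, adjusted p = 0.00498), but did not pass among cells with a Malat1 share of 3 to 5% (0.58, adjusted p = 0.0849). Sema4c, a plexin-B2 ligand, passed the threshold as higher (log2 fold change 0.96, SE 0.34, adjusted p = 0.0404) although its groups overlapped, and it lost the call without injured 1 (0.87), uninjured 4 (1.00), uninjured 5 (0.86) or injured 3 (0.81). Sema4c did not pass either with library totals alone (adjusted p = 0.0703), upper-quartile factors (0.0530), similar libraries summed (0.106) or injured 3 and 4 left out (0.154), and against uninjured 5 and 6 alone its log2 fold change was 1.93. Sema4b, Sema4f and Sema5b did not pass, with log2 fold changes of -0.45, 0.28 and -0.92.

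Ephrins, the membrane ligands of Eph receptors, were split, with 3 of 7 tested genes higher and 2 lower. These are 42.9% and 28.6%, beside 21.3% and 22.7% of all genes tested. Efna5, an ephrin-A linked to the membrane by a lipid tail and known from retinotopic mapping, was at 204 to 301 CPM (median 244) in uninjured and 662, 657 and 563 CPM in injured samples. Every injured sample was above every uninjured one (log2 fold change 1.34, SE 0.15, adjusted p = 2.57e-05). Efna1 was at 2.04 to 5.05 CPM (median 2.95) and 11.6, 9.43 and 19.6 CPM. This ephrin-A rose from a low level (log2 fold change 2.08, SE 0.30, adjusted p = 1.57e-04). Efnb1, a transmembrane ephrin-B, was at 9.7 to 12.8 CPM (median 10.9) and 16.8, 16.6 and 17.6 CPM. Its rise was small but the groups did not overlap (log2 fold change 0.62, SE 0.14, adjusted p = 0.00396). Efnb1 lies on the X chromosome, and Xist was found in most cells of injured 1 and 2 but in few cells of all other libraries. The part of sex in this rise was not tested. The call of Efnb1 was lost with similar libraries summed (adjusted p = 0.0580) and among cells with a Malat1 share of 3 to 5% (0.40, adjusted p = 0.222). Efna3, a further ephrin-A, was at 12.2 to 26.7 CPM (median 17.4) before and 2.45, 2.02 and 1.07 CPM after injury. It had the largest fall of all guidance genes tested (log2 fold change -3.34, SE 0.36, adjusted p = 1.75e-05). Efnb2, a transmembrane ligand of EphB receptors and of EphA4, was at 13.2 to 26.5 CPM (median 23.9) and 7.004, 6.29 and 8.86 CPM. It fell without overlap (log2 fold change -1.53, SE 0.26, adjusted p = 5.09e-04), but among cells with a Malat1 share of 3 to 5% the change was -0.64 and did not pass (adjusted p = 0.174). Efna2 and Efnb3 did not pass, with log2 fold changes of -0.85 (95% interval -1.48 to -0.21) and -0.16 (adjusted p = 0.796). Efna1 (bases 89179037 to 89188449) and Efna3 (89221203 to 89230272) are neighbours on the reverse strand of chromosome 3 and moved in opposite directions. Through Efna5, ephrin-A genes summed to 246 to 334 CPM in uninjured and 684, 675 and 592 CPM in injured samples.

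**Figure D2:**
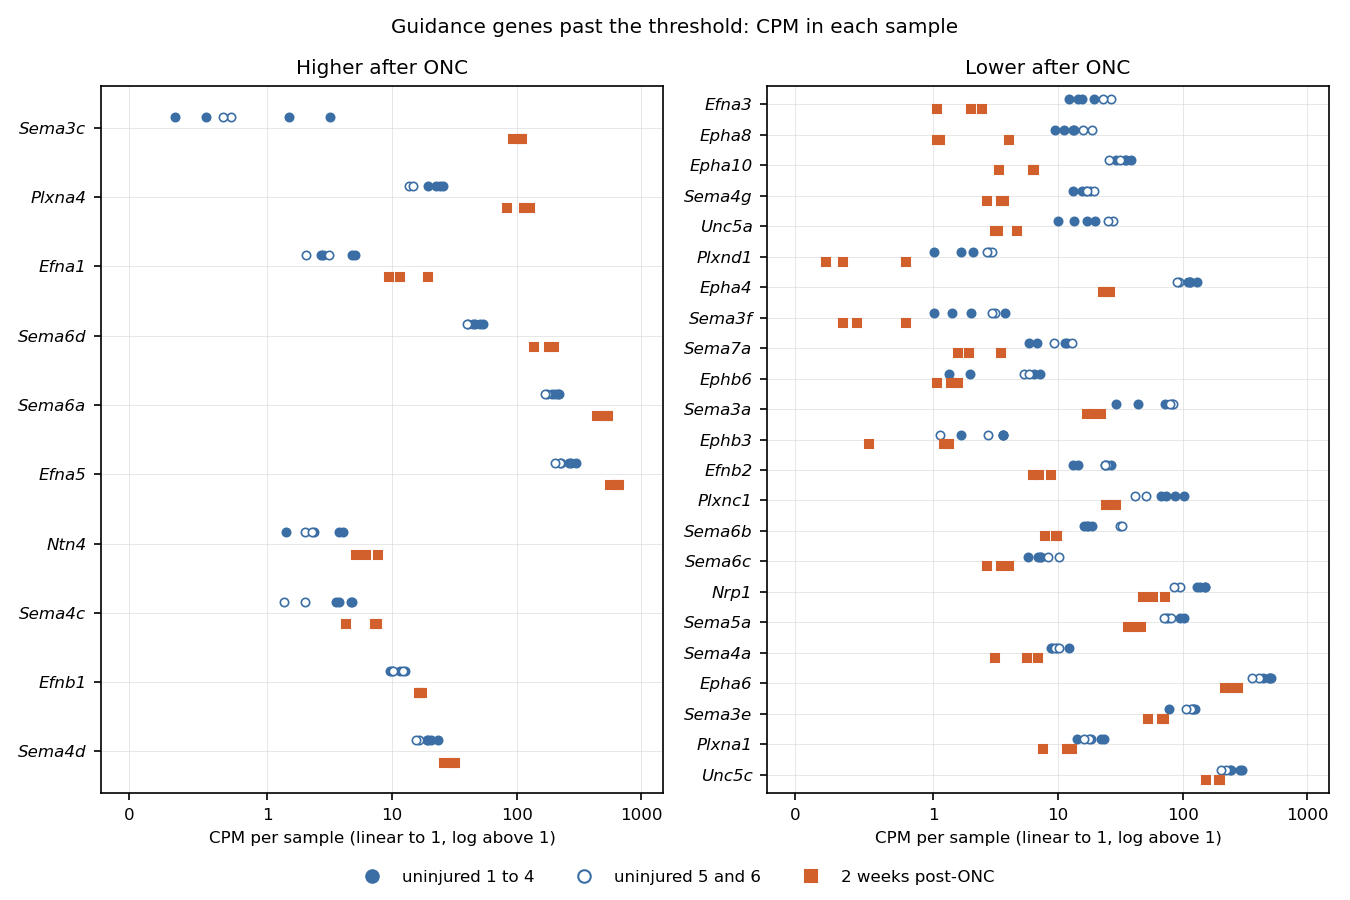
Level (CPM, linear to 1 and log above) of each guidance gene past the threshold in each sample, with the 10 higher genes on the left and the 23 lower genes on the right. Circles are uninjured samples (open for uninjured 5 and 6) and squares are samples 2 weeks post-ONC. Sema3c is the gene with the widest gap, and the groups overlap for Sema4c, Ephb3 and Ephb6.

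Slits and netrins, the secreted ligands of Robo and of Dcc and Unc5 receptors, had 1 call among 5 tested genes, where 44.0% of all genes tested were called. Slit2, with the most captured UMIs of the Slits, was at 134 to 218 CPM (median 169) in uninjured and 152, 171 and 111 CPM in injured samples. The groups overlapped, and the log2 fold change was -0.26 (95% interval -0.62 to 0.11, adjusted p = 0.292). Slit1 was at 9.97 to 20.9 CPM (median 20.5) and 26.3, 27.6 and 22.8 CPM. All injured samples were higher, but the test did not pass (log2 fold change 0.53, adjusted p = 0.0735). Slit1 passed as higher without uninjured 5 and 6 (0.30, adjusted p = 0.0448) and against them alone (1.13, adjusted p = 1.55e-04). Slit3 did not pass either (log2 fold change 0.71, SE 0.37, adjusted p = 0.137). Ntn4, a netrin related to laminins, was at 1.4 to 4.06 CPM (median 2.31) and 7.7, 5.16 and 6.18 CPM. It was higher in all injured samples (log2 fold change 1.15, SE 0.31, adjusted p = 0.0102), from few UMIs, and without injured 1 it did not pass (1.00, adjusted p = 0.0587), nor with similar libraries summed (adjusted p = 0.05003). Ntn3 did not pass (0.26, 95% interval -0.17 to 0.68), and its reads may be shared with Tbc1d24, which overlaps it on the same strand.

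Plexins, the signalling receptors of semaphorins, included the only receptor that rose among the 26 tested. Of 7 tested plexins 1 was higher and 3 were lower (14.3% and 42.9%, beside 21.3% and 22.7% of all genes tested). Plxna4, a receptor for Sema3a and Sema6a, was at 13.8 to 25.6 CPM (median 21.1) in uninjured and 128, 115 and 84.1 CPM in injured samples. The lowest injured sample was 3.29-fold above the highest uninjured sample (log2 fold change 2.41, SE 0.21, adjusted p = 2.98e-06). Plxnc1, the receptor of Sema7a, was at 41.2 to 102 CPM (median 70.4) and 29.2, 27.2 and 24.4 CPM. It fell without overlap (log2 fold change -1.38, SE 0.26, adjusted p = 0.00122), as Sema7a did, and against uninjured 5 and 6 alone the change was -0.77. Plxna1, a receptor for class 3 semaphorins with neuropilins and for Sema6d, was at 14.3 to 23.4 CPM (median 18.1) and 11.9, 7.63 and 12.9 CPM. It also fell (log2 fold change -0.79, SE 0.21, adjusted p = 0.00958), and without injured 2 the change was -0.60 and did not pass (adjusted p = 0.0511). Plxna1 did not pass either with similar libraries summed (adjusted p = 0.0669) or among cells with a Malat1 share of 3 to 5% (adjusted p = 0.117). Plxnd1, the receptor of Sema3e, was low at 1.01 to 2.94 CPM (median 2.41) and 0.35, 0.225 and 0.806 CPM, and fell (log2 fold change -2.16, SE 0.47, adjusted p = 0.00302; -2.87 with injured 3 and 4 left out). Plxna2, with the most captured UMIs of the plexins, was at 84.3 to 191 CPM (median 164) and 178, 180.3 and 126 CPM. It overlapped between conditions (log2 fold change 0.14, 95% interval -0.39 to 0.68), and against uninjured 5 and 6 alone it was 0.91 higher (adjusted p = 0.000389). Plxna3 and Plxnb2 did not pass (-0.30 and -0.27).

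The neuropilins, which bind class 3 semaphorins, had 1 gene that fell and 1 that did not pass, a difference that was not itself tested. Nrp1, the receptor part for Sema3a and also for VEGF, was at 84.96 to 152 CPM (median 134) in uninjured and 57.96, 71.9 and 48.3 CPM in injured samples. Injured samples were all lower (log2 fold change -1.08, SE 0.22, adjusted p = 0.00174). Nrp2, the partner for Sema3f, was at 45.99 to 81.5 CPM (median 69.3) and 73.7, 74.1 and 56.1 CPM. Its groups overlapped, with a log2 fold change of 0.07 (95% interval -0.32 to 0.45, adjusted p = 0.808), and against uninjured 5 and 6 alone it was 0.54 (adjusted p = 0.00621).

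Among Eph receptors 6 of 11 tested were lower (54.5%), none was higher and 5 did not pass. Of all genes tested 22.7% were lower and 21.3% higher. The family count was not itself tested. Epha4, which binds both ephrin-A and ephrin-B ligands, was at 90.4 to 131 CPM (median 112) in uninjured and 24.5, 23.1 and 26.1 CPM in injured samples. The groups were far apart, with little spread after injury (log2 fold change -2.15, SE 0.16, adjusted p = 7.88e-07). Epha10, a member without kinase activity, was at 25.6 to 38.7 CPM (median 32.96) and 6.3, 3.37 and 6.45 CPM. It fell without overlap (log2 fold change -2.57, SE 0.22, adjusted p = 2.97e-06). Epha8 was at 9.43 to 18.8 CPM (median 13.4) and 4.03, 1.12 and 1.07 CPM. This receptor was lower in all injured samples (log2 fold change -2.72, SE 0.40, adjusted p = 1.78e-04), with injured 1 above the other two, and without injured 1 the log2 fold change was -3.63. Epha6, an EphA receptor, was at 362 to 509 CPM (median 468) and 217, 243 and 278 CPM. It fell (log2 fold change -0.88, SE 0.16, adjusted p = 9.89e-04), but where cells were limited to a Malat1 share of 3 to 5% the change was -0.39 and did not pass. Ephb6, which lacks kinase activity, and Ephb3 also passed as lower (-1.91 and -1.53, adjusted p = 0.00927 and 0.0182), but their groups overlapped and neither passed with injured 3 and 4 left out (adjusted p = 0.0543 and 0.113), nor Ephb3 with similar libraries summed (adjusted p = 0.0523). Epha5, a receptor graded across the retina during map formation, was at 445 to 812 CPM (median 606) and 799.8, 652 and 715 CPM. It had the highest CPM of the Eph genes and overlapped between conditions (log2 fold change 0.23, 95% interval -0.19 to 0.65, adjusted p = 0.413). Other settings called Epha5 in opposite directions, -0.66 among cells with a Malat1 share of 3 to 5% (adjusted p = 0.0103) and 0.70 against uninjured 5 and 6 alone (adjusted p = 8.75e-04). Epha7, Ephb1, Ephb2 and Epha3 did not pass, with log2 fold changes of -0.08, -0.54, -0.42 and -0.58. EphA genes summed to 966 to 1466 CPM in uninjured and 1084, 956 and 1054 CPM in injured samples, which overlap, and Epha5 was the largest part of the sum.

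Robo2 and Dcc, receptors of Slit and netrin, overlapped between the conditions. Robo2, the main Robo of RGCs, was at 572 to 839 CPM (median 717) in uninjured and 831, 725 and 607 CPM in injured samples. Its log2 fold change of 0.02 (95% interval -0.31 to 0.35, adjusted p = 0.933) was close to 0, but where cells were limited to a Malat1 share of 3 to 5% it was -0.70 and passed as lower (adjusted p = 0.0111). Dcc was at 674 to 1056 CPM (median 769) and 766, 783 and 683 CPM. It overlapped as well (log2 fold change -0.16, 95% interval -0.51 to 0.19, adjusted p = 0.494), but in the same cells its change was -0.95 (adjusted p = 0.00257). Robo1 did not pass (-0.33, 95% interval -1.02 to 0.36). Of the Unc5 repulsive netrin receptors, Unc5a was at 10.1 to 27.6 CPM (median 18.5) and 3.33, 3.14 and 4.7 CPM. It fell without overlap (log2 fold change -2.33, SE 0.33, adjusted p = 1.61e-04). Unc5c was at 204 to 299 CPM (median 241) and 199, 195 and 154 CPM. Its fall was small (log2 fold change -0.45, SE 0.16, adjusted p = 0.0395) and passed in 14 of 25 alternative settings. Without uninjured 1, 2, 3 or 4, or injured 1 or 2, it did not (-0.45, -0.44, -0.38, -0.39, -0.51 and -0.50), nor with no filter on low counts, with similar libraries summed, with injured 3 and 4 left out, among cells with a Malat1 share of 3 to 5% (-0.117) or against uninjured 5 and 6 alone. Unc5d did not pass (-0.31, 95% interval -0.67 to 0.06).

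Summed over their genes, the 33 ligands were at 1057 to 1304 CPM in uninjured and 1973, 1964 and 1664 CPM in injured samples, which did not overlap, and the 29 receptors were at 3262 to 4822 CPM and 3873, 3630.0 and 3248 CPM, which did. Among the ligands Efna5, Sema6a, Sema6d and Sema3c had the widest differences in mean CPM. These sums weight abundant genes, and CPM of different genes is compared here only as captured UMIs, which also depend on the 3′ end and the length of a gene.

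**Figure D3:**
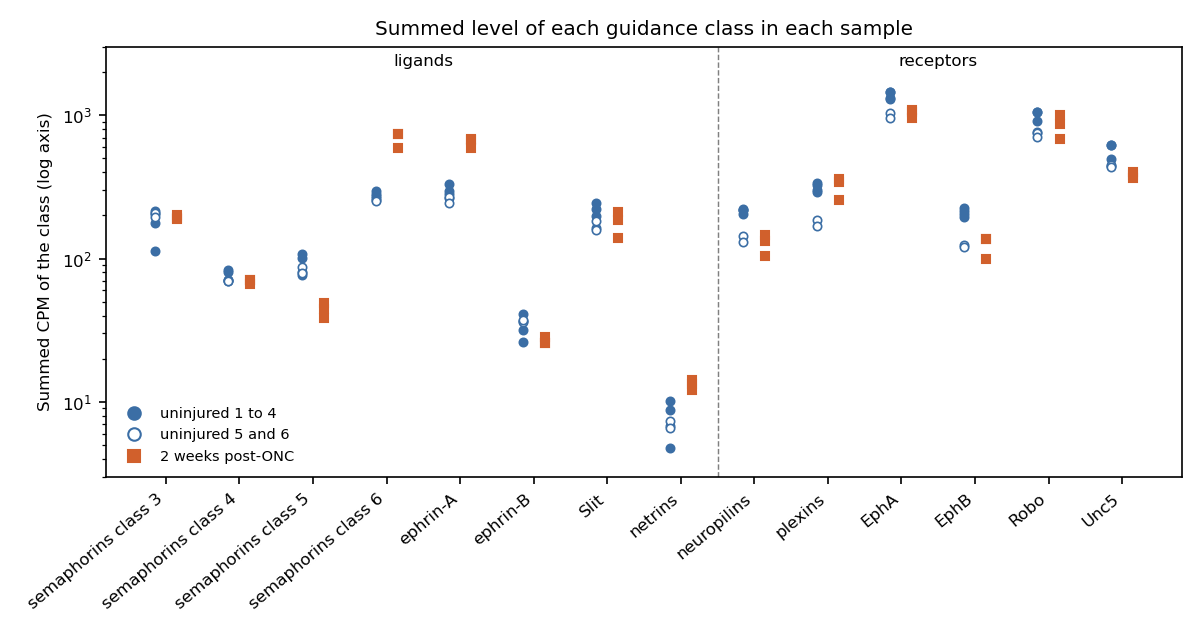
Summed CPM (log axis) of each ligand and receptor class in each sample, with circles for uninjured samples (open for uninjured 5 and 6) and squares for samples 2 weeks post-ONC. Class 6 semaphorins, ephrin-A genes and netrins lie higher in all 3 injured samples, class 5 semaphorins and Unc5 genes lie lower, and class 3 semaphorins and Robo genes overlap.

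Shares of cells with a UMI were compared at one depth. For this, each cell was thinned to 8000 UMIs and shallower cells were left out, which kept 95 to 644 cells per uninjured and 251 to 460 per injured library. Sema3c was then detected in a share of cells of 1.06% ± 1.53 without injury (SD, n = 6) and 43.4% ± 1.73 with it (SD, n = 3). The unthinned shares were 3.43% and 57.3%. Plxna4 was detected in a share of cells of 10.8% ± 3.12 without injury (SD, n = 6) and 39.3% ± 4.71 with it (SD, n = 3) after thinning, against 24.1% and 50.3% unthinned. Epha4 was detected in a share of cells of 55.3% ± 5.52 without injury (SD, n = 6) and 14.4% ± 0.632 with it (SD, n = 3). Without thinning the shares were 82.5% and 22.3%. Sema6d was found in 24.9% ± 4.26 without injury (SD, n = 6) and 46.97% ± 3.72 with it (SD, n = 3) (unthinned 42.9% and 55.98%). Nrp1 was found in 52.1% ± 7.32 without injury (SD, n = 6) and 29.9% ± 5.62 with it (SD, n = 3) (unthinned 80.6% and 41.7%). By contrast Epha5, Robo2 and Dcc were found in most cells of both conditions, at 94.4% and 92.3%, 96.4% and 91.3%, and 91.2% and 79.8% of thinned uninjured and injured cells. The part of free RNA in these shares was not tested, and Sema3c was found in 0 to 3.88% of thinned cells per uninjured library. The median thinned cell carried UMIs of 13 to 16 guidance genes in uninjured and 11 to 12 in injured libraries.

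**Figure D4:**
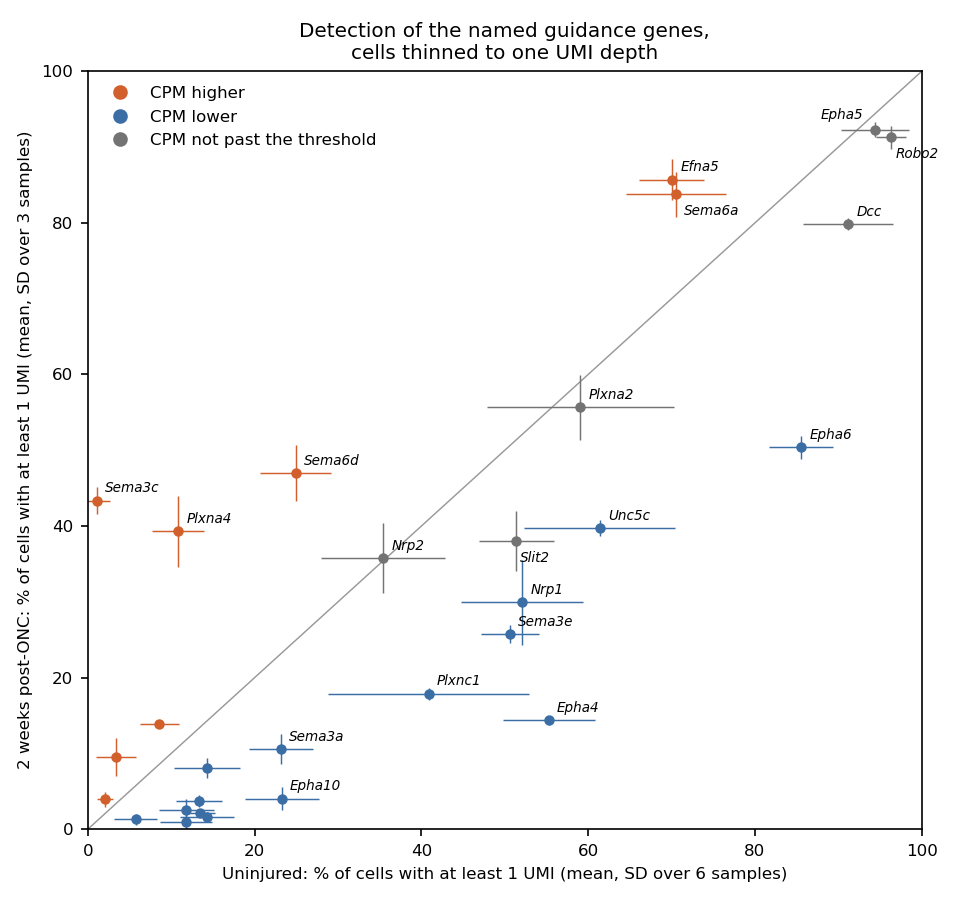
Share of cells with at least 1 UMI of each of 29 named guidance genes after thinning to one depth, uninjured on the x axis and injured on the y axis (mean and SD over 6 and 3 samples), with the line of equal shares. Sema3c and Plxna4 lie far above the line and Epha4 and Epha6 far below it, and Epha5 and Robo2 lie close to it near the top.

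Levels were also taken within cells that had at least 3 UMIs of a subset marker after thinning, or of none of the 9 subset markers or marker pairs, in samples with at least 20 such cells. Cells with none of them were 52.2 to 63.2% of thinned uninjured and 81.9 to 85.3% of thinned injured cells per library, and Cartpt, one of the markers, was itself at 177 to 947 CPM without and 31.7 to 49.95 CPM with injury, so these cells need not be the same kinds in both conditions. In the cells without a subset marker Sema3c was at 1.16 ± 1.36 CPM without injury (SD, n = 6) and 101 ± 10.6 CPM after it (SD, n = 3), and Plxna4 at 19.1 ± 8.2 CPM and 109.6 ± 22.6 CPM. In Foxp2-positive cells Sema3c was at 1.48 ± 1.63 CPM over 3 uninjured samples (SD) and 143 CPM in the 1 injured sample with enough cells. The level of Sema3c after injury in Foxp2-positive cells rests on that 1 sample, so its spread is not known and no rise is concluded. Sema3a before injury was at 129 ± 27.9 CPM (SD, n = 4) in Cartpt-positive cells and 13.2 ± 9.56 CPM (SD, n = 3) in Foxp2-positive cells, which were at 13.2 CPM in the 1 injured sample with enough of them. Cartpt-positive cells made up 14.7 to 26.0% of thinned uninjured and 1.11 to 2.39% of thinned injured cells per library, and in cells without a subset marker Sema3a was at 46.7 ± 8.8 CPM without injury (SD, n = 6) and 18.6 ± 1.63 CPM after it (SD, n = 3). Epha4 in cells without a marker was at 114 ± 28.1 CPM and 22.3 ± 0.802 CPM. These are descriptions without a test.

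Guidance receptors include some of the longest genes, and whether intronic reads were counted is not settled, since the methods and the submitters' notes name different versions of Cell Ranger. Of 18 guidance genes that span at least 200 kb 3 were higher and 5 lower, and of 39 shorter ones 7 were higher and 18 lower. Among all 971 tested genes of at least 200 kb, 24.2% were higher and 26.1% lower, and among genes of any span 21.3% and 22.7%. The shares over all shorter genes were not computed. The difference between long and short guidance genes was not tested. Several genes overlap others on the opposite strand in GENCODE, among them Unc5a (Hk3), Sema4g (Mrpl43), Sema4d (Secisbp2), Ephb6 (Trpv6) and Plxna4 (3 antisense RNAs). On the same strand, besides Ntn3, Slit2 overlaps Gm20475, Robo1 Gm56620, Ephb1 Gm29388 and Ntn1 Gm12305, so reads may be shared there.

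Genes that act with these ligands and receptors were read from 3 further lists. Of 33 tested coreceptors and adhesion partners 9 were higher and 12 lower (27.3% and 36.4%, median log2 fold change -0.35). Among all genes tested these shares were 21.3% and 22.7%. Gfra1, a GDNF coreceptor, was at 0.561 to 14.8 CPM in uninjured and 17.7, 45.8 and 8.73 CPM in injured samples. It passed (log2 fold change 2.03, SE 0.68, adjusted p = 0.0294) although the groups overlapped, and without injured 2 it did not (1.19, adjusted p = 0.251), nor without injured 1 (2.22, adjusted p = 0.0515). Gfra1 also lost its call under DESeq2 (adjusted p = 0.0666) and in further settings, with log2 fold changes of 1.34 with libraries 1 to 4, 0.96 with the replicate block and 3.73 against uninjured 5 and 6 alone, whereas without cells that carry markers of another class it passed at 3.97 (adjusted p = 9.01e-05). Lingo1, a Nogo receptor partner, was at 99.4 to 122 CPM before and 38.3, 43.6 and 34.5 CPM after injury, and fell (log2 fold change -1.51, SE 0.13, adjusted p = 3.16e-06). Flrt3, a Robo and Unc5 partner, was at 17.9 to 31.3 CPM before and 70.7, 70.1 and 76.3 CPM after injury, and rose (log2 fold change 1.48, SE 0.16, adjusted p = 1.56e-05). Of 18 tested other guidance ligands 4 were higher and 6 lower (22.2% and 33.3%, beside 21.3% and 22.7% of all genes, median -0.04). The share that was higher is thus near that of all genes. Omg, a myelin-associated inhibitor of axon growth, was at 12.5 to 22.98 CPM before and 3.85, 2.47 and 3.09 CPM after injury, and fell (log2 fold change -2.60, SE 0.25, adjusted p = 7.16e-06). Nell2, a Robo3 ligand, fell with a log2 fold change of -1.42 (adjusted p = 1.34e-05) and Slitrk5, a synaptic adhesion protein, with one of -1.41 (adjusted p = 9.20e-06).

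Cytoplasmic effectors were the list with more rises than falls, 20 against 8 of 63 tested, which is 31.7% and 12.7% beside 21.3% and 22.7% of all genes (median 0.24). Rnd1, a small GTPase that binds plexins, was at 18.02 to 27.5 CPM in uninjured and 57.6, 59.1 and 76 CPM in injured samples. All injured samples were higher (log2 fold change 1.57, SE 0.15, adjusted p = 7.08e-06). Rnd2, a relative, was at 16.6 to 37.6 CPM before and 7.53, 9.88 and 8.86 CPM after injury, and fell (log2 fold change -1.57, SE 0.29, adjusted p = 0.00101). Chn1, a Rac GTPase-activating protein used by Eph receptors, was at 304 to 403 CPM and 110.1, 114 and 113 CPM. It fell without overlap (log2 fold change -1.61, SE 0.15, adjusted p = 5.43e-06). Mical1, an oxidase that acts on actin downstream of plexins, is named here after its values were seen: it had 7 UMIs over 6 uninjured libraries and was at 10.9, 8.98 and 10.6 CPM in injured samples (log2 fold change 6.07, SE 0.56, adjusted p = 5.32e-06).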

How the data were processed

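The authors aligned droplet scRNA-seq reads to mm39 with Cell Ranger (7.0.1 in the submitters' processing notes), kept the RGCs and deposited matrices of UMI counts that are raw, not normalized. The methods name an earlier Cell Ranger version at its default settings, and the defaults of the versions differ in whether intronic reads are counted. The methods name the v2 kit and removal of amacrine cells and macrophages, and the labels the v3 kit and removal of macrophages alone. Here the UMI counts were summed per library with Python 3.11.15, injured 3 and 4 (421 shared barcodes) were averaged, with rounding, to 1 sample, and sums were compared with edgeR 4.0.16 under R 4.3.3 (filterByExpr, TMM, robust quasi-likelihood fit over 14234 genes, Benjamini-Hochberg adjustment, threshold 0.05, no minimum fold change). Levels per sample are TMM-scaled CPM, whereas the markers of RGCs and of other cell classes given per library are CPM of library totals alone. Cells were not used as replicates. One marker class is not reported here. For single genes log2 CPM was permuted over samples in an exact test, two-sided (pseudocount 0.5 counts), whose smallest p is 0.0238, reached by each named gene whose groups do not overlap except Epha3 (0.0476). Doublets were not called again, and a setting without cells that carry at least 3 markers of another retinal class stands in for it. On data simulated for this comparison over 14204 genes, edgeR recovered 45 of 89 genes changed by 1 log2 unit and 87 of 92 changed by 2, with 8 false calls among 140. The simulated samples were drawn independently and few genes were changed, whereas the libraries here are alike in pairs and many genes were called. These rates therefore do not measure the error of the calls reported here. The guidance genes and all lists were chosen with earlier results of these data known. Genes given in full are, per family, up to 5 past the threshold with the largest change, no overlap and a mean of at least 2 CPM, plus the 2 most abundant. In each further list they are up to 3 past the threshold with a mean of at least 5 CPM. Other guidance genes are given more briefly so that each is accounted for. Alternatives were other normalizations and filters, DESeq2 1.42.0, each library left out, libraries 1 to 4 with a replicate block, all 10 libraries apart, similar libraries summed, injured 3 and 4 left out, thinned cells, cells without markers of another class, cells with 3 to 5% Malat1 and, chosen after seeing the data, without uninjured 5 and 6 or 1 to 4. Promoter windows come from GENCODE vM39 on GRCm39, which is mm39.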

Additional observations from a re-analysis of the deposited data

Results flagged for a closer look

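UMIs of mCherry, which the paper uses as a reporter of viral vectors, were present in 86.0% of the cells of injured 3 and in none of the uninjured cells. The shares in injured 1, 2 and 4 were 7.99%, 15.0% and 84.3%. The reporter thus goes together with injury here and cannot be told apart from it, and its part in the results was not tested. Among the 6 uninjured samples no guidance gene described in full had a sample far from the others by Dixon's limit, and the 3 injured samples were too few for that check.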

How the results depend on the processing

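All 33 called guidance genes kept their direction in the 25 alternative settings that tested them, and 22 stayed past the threshold in each of these. Of the 33, 21 were tested in all 25 settings, and 14 of those 21 passed in each. With at least 10 counts in every sample 6 of 41 tested genes were higher (14.6%, beside 19.4% of all genes). Among cells with 3 to 5% Malat1 6 of 44 were higher (13.6%, beside 17.3%). Against uninjured 5 and 6 alone (without uninjured 1 to 4) 19 of 58 were higher (32.8%, beside 31.1%). With 1 library left out 8 to 10 of 57 were higher and 22 to 24 lower. Of all genes 17.3% to 21.7% were then higher and 17.2% to 23.4% lower. With similar libraries summed 7 were higher and 19 lower of 61 tested (11.5% and 31.15%, beside 13.2% and 13.9% of all genes). In that setting 4181 of 15454 genes were called in all, against 6256 of 14234 with the main samples. Over all settings 6 to 19 were higher and 17 to 27 lower, while the share of all genes called higher ran from 13.2% to 31.1% and of those called lower from 13.0% to 30.1%. With libraries 1 to 4 the replicate block gave 11 higher and 24 lower and the fit without it 11 and 25. Correlations between same-numbered libraries were -0.06 to 0.01. They rest on 4 libraries per condition that are alike in pairs, so they cannot decide whether a number marks a shared animal or day. Some changes that did not pass with all samples turned direction. In cells with 3 to 5% Malat1, of which uninjured 5 and 6 held 7 and 8, Epha5 (-0.66, adjusted p = 0.0103) and Robo2 (-0.70, adjusted p = 0.0111) passed as lower, while Nrp2 was at -0.130, Slit1 at -0.31 and Epha3 at 0.74, and with thinned cells Dcc was at 0.0248. Robo2 was at -0.0589 with library totals alone, -0.0290 with upper-quartile factors, -0.16 with libraries 1 to 4 (-0.16 with the block), -0.0425 with 10 libraries apart, -0.0442 with similar libraries summed and -0.0847 without uninjured 5 and 6. Nrp2 was at -0.0174 with library totals alone, -0.20 with libraries 1 to 4 (-0.21 with the block), -0.00151 with 10 libraries apart, -0.00993 with similar libraries summed and -0.127 without uninjured 5 and 6. Plxna2 was at -0.23 with libraries 1 to 4 (-0.25 with the block) and -0.133 without uninjured 5 and 6. With single libraries left out the log2 fold change of Robo2 ranged from -0.0881 to 0.0937 and the log2 fold change of Nrp2 from -0.0126 to 0.168. The cause was not tested. Genes under about 1 CPM rest on few UMIs, and 6 guidance genes could not be tested at this depth.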

Other observations

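Against uninjured 5 and 6 alone, a comparison chosen after seeing the data, 6 guidance genes were higher that had been tested but were not higher against all 6 uninjured samples: Epha5, Nrp2, Plxna2, Sema4f, Slit1 and Slit3. Over all genes tested the share called higher was 31.1% in that comparison and 21.3% against all 6 uninjured samples.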
